A study of Mus musculus with 10 samples.

Results

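The 10 antioxidant enzymes described here were the glutathione peroxidases Gpx1 and Gpx4, the peroxiredoxins Prdx1, Prdx2, Prdx3, Prdx5 and Prdx6, catalase (Cat) and the superoxide dismutases Sod1 and Sod2. They were taken by gene name from a table of 8904 genes, and all 10 had a value in every library. The libraries were blood RNA of adult C57BL/6 mice, 5 of a control group given PBS for 30 days and 5 of a metformin-treated group given the drug over the same 30 days. No other genotype, allele or agent is labelled, each library was taken as 1 mouse, and the labels name neither a dose nor a route. The paper describes the mice it tested as middle-aged and female. With nothing stating that the libraries came from separate animals, p-values measure the spread between these libraries. Values are log2 FPKM as deposited, fragment counts scaled by transcript length and library size. The offset under the log is not stated, so a difference in log2 understates the change of a gene with a low value.

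Superoxide dismutases turn superoxide into hydrogen peroxide, in the cytosol (Sod1) and in the mitochondrial matrix (Sod2). Catalase, the glutathione peroxidases and the peroxiredoxins remove the peroxide, with reducing power from NADPH that passes through glutathione or thioredoxin. Red blood cells carry oxygen on hemoglobin, which releases superoxide as it oxidizes, and they are known for large amounts of catalase, Gpx1 and Prdx2. Heart and skeletal muscle hold many mitochondria, and the mitochondrial enzymes Sod2, Prdx3 and Prdx5 serve that compartment.

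The labelled tissue was checked against marker lists before the enzymes were compared. In 8 libraries the highest gene with a deposited value was Alas2, the heme synthesis enzyme of red cell precursors, at 12.48. Control 1 and control 5 stood apart, with Alas2 at 1.08 and 8.28 and the heart myosin light chain Myl2 at 12.48 in both, against 0.46 to 4.24 in the others. The mean over 19 heart muscle genes was 7.22 and 7.18 in these libraries and 0.18 to 1.53 in the rest. The mean over 17 erythroid genes was 0.55 and 1.61 against 3.82 to 5.09. The erythroid list named 23 genes, every one with a value was used, and the hemoglobin genes of that list were not among the 17. All 16 fast skeletal muscle genes reached a log2 value of 1 in each metformin library (means 4.42 to 5.05), while the control means were 0.41 to 0.55 in control 2, 3 and 4, and 1.86 and 1.72 in control 1 and control 5. The values of all libraries have nearly the same distribution, so every value is relative to the rest of its library. In bulk blood, fewer cells of a type and less RNA per cell cannot be told apart. Values are therefore given with control 1 and control 5 apart, and the comparison was made with and without them.

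None of the 10 enzymes passed the test between metformin-treated and control mice, with all 10 libraries or without control 1 and control 5. With all libraries, 0 of 10 rose and 0 of 10 fell past an adjusted p of 0.05 from limma, where 4.21% of the 3442 genes tested were higher and 3.11% lower. Before adjustment 3 had a p under 0.05 and a higher value under metformin (Prdx3, Cat and Sod2), and 0 a lower one. Without control 1 and control 5 the counts were again 0 and 0, where 5.81% of genes were higher and 9.06% lower. All 10 enzymes had passed the filter on low values, which asked for a log2 value of 1 or more in 5 or more libraries. Their median log2 difference, metformin minus control, was 0.62 with all libraries and 0.36 without control 1 and control 5, and over all genes tested it was 0.01 and 0.07. In Cat and Sod2 every metformin value lay above every control value. These were 2 of 10 enzymes, where 5.69% of all genes tested did so, and 0 of 10 lay below, where 5.23% did so. Against control 2, 3 and 4 alone the same 2 enzymes were above (9.85% of genes) and 0 below (12.9% of genes).

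**Figure D1:**
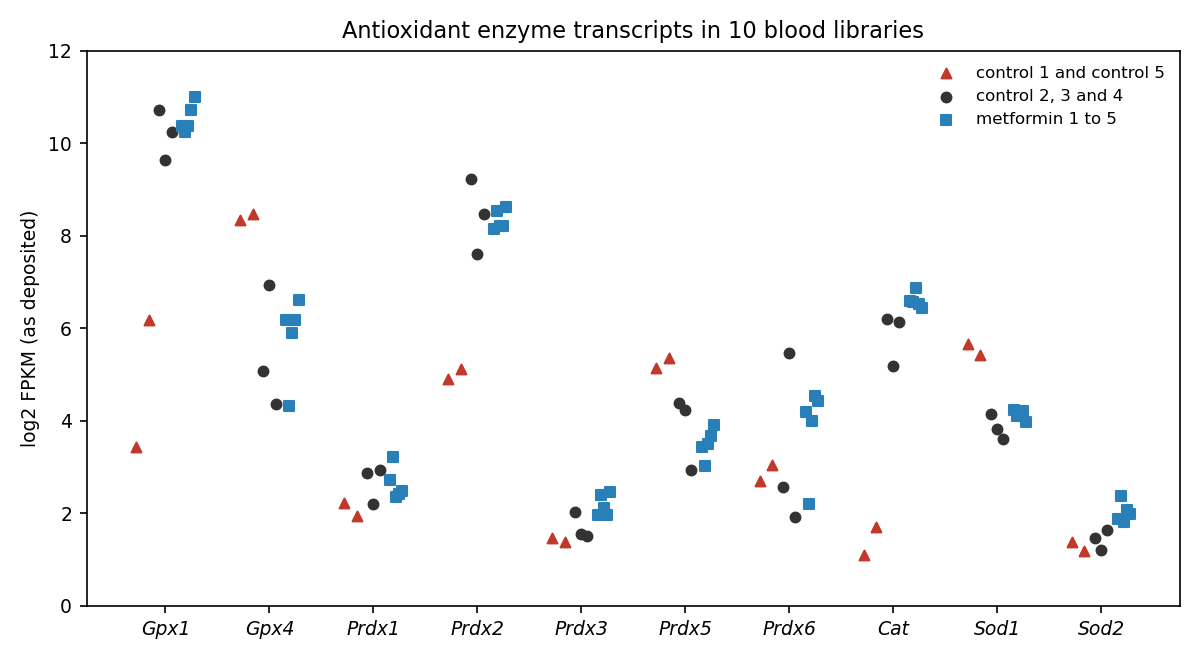
Log2 FPKM of the 10 enzymes (vertical axis) in each of the 10 blood libraries, 1 point per library, with control 1 and control 5 as triangles, control 2, 3 and 4 as circles and the 5 metformin libraries as squares. The triangles lie below all other points for Gpx1, Prdx2, Prdx3 and Cat and above all of them for Gpx4, Prdx5 and Sod1.

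Catalase, which splits hydrogen peroxide into water and oxygen with no need of glutathione or thioredoxin, was higher in every metformin library than in every control library. Cat (chromosome 2, 103453849 to 103485160, GRCm38) was at 6.20, 5.17 and 6.14 in control 2, 3 and 4, at 1.09 in control 1 and 1.71 in control 5, and at 6.58, 6.57, 6.88, 6.53 and 6.44 in metformin 1 to 5. The lowest metformin value, 6.44, lay above the highest control value. Metformin minus control was 2.54 on the log2 scale with all libraries (standard error 0.997, 95% interval 0.35 to 4.73, adjusted p = 0.137 from limma). Against control 2, 3 and 4 it was 0.76 (standard error 0.286, 95% interval 0.12 to 1.40, adjusted p = 0.108 from limma), so control 1 and control 5 made up the larger part of the first value. With control 3 left out as well it was 0.43. The adjusted p of Cat was 0.0751 to 0.290 when each of the 10 libraries was left out in turn.

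Sod2, the manganese enzyme of the mitochondrial matrix, had low values with little spread in either group. Sod2 (chromosome 17, 13006846 to 13040063) was at 1.37, 1.46, 1.19, 1.64 and 1.19 in control 1 to 5 and at 1.88, 2.38, 1.81, 2.08 and 1.98 in metformin 1 to 5. Control 1 and control 5 did not stand apart from the other controls in this gene. The log2 difference was 0.65 (standard error 0.181, 95% interval 0.26 to 1.05, adjusted p = 0.0530 from limma), just above the threshold of 0.05. Without control 1 and control 5 it was 0.59 (standard error 0.197, adjusted p = 0.0727 from limma). Leaving out control 4, the highest control library for Sod2, brought the adjusted p of limma to 0.0438, and leaving out any other single library gave a value above 0.05, up to 0.139. The fast skeletal muscle markers were also higher in every metformin library than in every control library by their mean. With all libraries limma called 13 of the 16 higher, against 4.21% of all genes tested. All 16 reached the filter's value of 1 in each metformin library, against 2 to 6 of them in each control library. A gene kept through the metformin libraries alone had to differ, so the count is no support for a difference. The part of these markers in the Sod2 and Cat differences was not tested.

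Sod1, the copper and zinc enzyme of the cytosol, was highest in control 1 and control 5. Sod1 (chromosome 16, 90220754 to 90226329) was at 5.67 and 5.43 there, at 4.13, 3.81 and 3.59 in control 2, 3 and 4, and at 4.24, 4.11, 4.09, 4.20 and 3.97 in metformin 1 to 5. Metformin minus control was -0.40 with all libraries (95% interval -1.44 to 0.63, adjusted p = 0.555 from limma) and 0.28 without control 1 and control 5 (95% interval -0.28 to 0.84, adjusted p = 0.490 from limma), with opposite signs. Within each library Sod1 was above Sod2, by 1.73 to 2.36 on the log2 scale in the metformin libraries, by 1.96 to 2.67 in control 2, 3 and 4, and by 4.30 and 4.24 in control 1 and control 5. Sod1 overlaps Scaf4 on the other strand, whose values were 0.19 to 0.61.

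Gpx1, the selenium-containing cytosolic peroxidase that reduces peroxide with glutathione, was the highest of the 10 enzymes in 8 libraries. Gpx1 (chromosome 9, 108338903 to 108340343) was at 10.73, 9.64 and 10.25 in control 2, 3 and 4 and at 10.38, 10.25, 10.38, 10.73 and 11.00 in metformin 1 to 5, but at 3.44 in control 1 and 6.17 in control 5. In the 8 libraries it held rank 5 to rank 15 among all 8904 genes, and in control 1 and control 5 rank 471 and rank 120. The log2 difference of 2.50 with all libraries (standard error 1.23, adjusted p = 0.197 from limma) became 0.34 without control 1 and control 5 (95% interval -0.19 to 0.87, adjusted p = 0.368 from limma). Leaving out 1 further library gave 0.062 without control 3, 0.23 without metformin 5 and 0.60 without control 2.

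Prdx2, the thioredoxin-dependent peroxidase abundant in red cells, held the second place in the same 8 libraries. Prdx2 (chromosome 8, 84969587 to 84974834) was at 9.22, 7.60 and 8.46 in control 2, 3 and 4, at 8.14, 8.53, 8.21, 8.21 and 8.61 in metformin 1 to 5, and at 4.91 and 5.11 in control 1 and control 5. The metformin values lay inside the range of control 2, 3 and 4. The log2 difference was 1.28 with all libraries (adjusted p = 0.288 from limma) and -0.09 without control 1 and control 5 (95% interval -0.78 to 0.60, adjusted p = 0.861 from limma). Prdx2 overlaps Junb and Rnaseh2a on the opposite strand, and no source used here states that reads were counted by strand. Junb was at 0.62 to 3.15 and Rnaseh2a at 0.32 to 1.89 over the 10 libraries, all below the lowest Prdx2 value.

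The erythroid list was lowest in the same 3 libraries as Gpx1, Cat and Prdx2. Its mean was lowest in control 1, next in control 5 and next in control 3 (3.82), and Cat and Prdx2 had their 3 lowest values in these libraries in the same order, as did Gpx1. Control 1 and control 5 were set apart by their own values, and 21.8% of the genes kept were below all other libraries in both. In the remaining libraries the order was not kept for Prdx2. Control 2 had the lowest erythroid mean of these (4.66) and the highest Prdx2 value (9.22). The part of the erythroid genes in the metformin comparison was not tested. The measured differences without control 1 and control 5 were 0.34 for Gpx1, 0.76 for Cat and -0.09 for Prdx2. Of the 17 erythroid genes, limma called 2 higher and 0 lower with all libraries, where 4.21% of all genes tested were higher. Without control 1 and control 5 it called 3 higher and 0 lower, where 5.81% were higher. With all libraries 11 of the 17 had an unadjusted p of limma under 0.05 and a higher value under metformin, and 0 a lower one. The median log2 difference of the erythroid genes was 1.95 with all libraries and 0.50 without control 1 and control 5, against 0.01 and 0.07 over all genes tested.

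**Figure D2:**
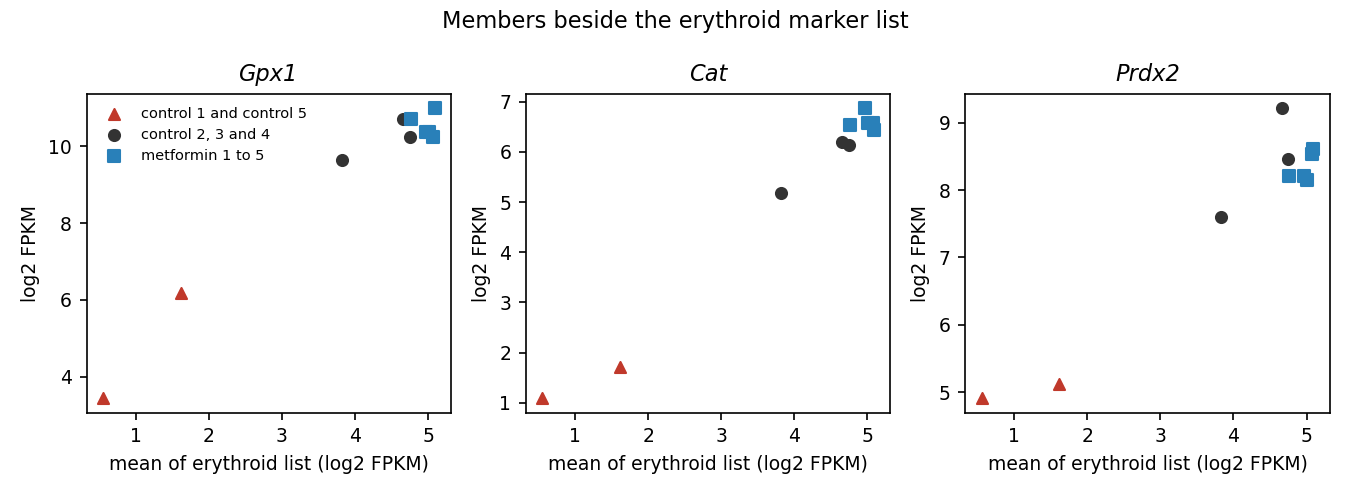
Log2 FPKM of Gpx1, Cat and Prdx2 (vertical axes) against the mean log2 FPKM of 17 erythroid marker genes (horizontal axes), 1 point per library, with symbols for control 1 and control 5, for control 2, 3 and 4 and for the metformin libraries. Control 1 and control 5 lie at the lower left of each panel, control 3 is the next lowest, and the other 7 libraries lie together at erythroid means of 4.66 to 5.09.

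The heart-rich libraries ordered the enzymes differently from the other 8, which is given as a description since these libraries were set apart by their own values. In control 1 and control 5 the highest enzyme was Gpx4, at rank 29 and rank 28 of all genes, followed in control 1 by Sod1 and Prdx5. Catalase was the lowest of the 10 in control 1 and eighth in control 5, while it held one of the first 5 places in each other library. Both libraries were below all other 8 in 4 of 10 enzymes (Gpx1, Prdx2, Prdx3 and Cat), as in 21.8% of the 3442 genes kept. They were above all other 8 in 3 of 10 (Gpx4, Prdx5 and Sod1), as in 20% of genes. For Prdx3 the margin was narrow, with 1.47 and 1.37 against a lowest value of 1.50 in the others.

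Promoters are shown for a pair of enzymes that were low together in these libraries and a pair that were high together. RefSeq (GRCm38.p6) gave a start for 9 of the 10 enzymes, and not for Prdx6. In the 250 bases before each start, both strands were searched for the core of the antioxidant response element, TGACNNNGC, the site of the transcription factor NRF2, and for the GATA site in the letters AGATAA with T also allowed first and G also allowed last, read by Gata1 in red cell precursors. Capitals mark a match, and the first pair below was low and the second high in control 1 and control 5. The promoters of Cat (chr2:103485154-103485403, minus strand), Gpx1 (chr9:108338830-108339079, plus strand), Sod1 (chr16:90220512-90220761, plus strand) and Gpx4 (chr10:80053315-80053564, plus strand, 1 of its 4 listed starts) read as follows.
Cat: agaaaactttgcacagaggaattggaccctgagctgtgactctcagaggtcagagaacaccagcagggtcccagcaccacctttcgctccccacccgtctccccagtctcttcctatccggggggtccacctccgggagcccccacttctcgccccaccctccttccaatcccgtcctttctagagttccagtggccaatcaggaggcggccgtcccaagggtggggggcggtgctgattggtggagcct
Gpx1: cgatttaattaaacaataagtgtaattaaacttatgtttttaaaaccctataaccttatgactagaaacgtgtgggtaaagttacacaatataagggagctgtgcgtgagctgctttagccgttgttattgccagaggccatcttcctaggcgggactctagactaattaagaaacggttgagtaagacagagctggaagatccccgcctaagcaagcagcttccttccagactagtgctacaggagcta
Sod1: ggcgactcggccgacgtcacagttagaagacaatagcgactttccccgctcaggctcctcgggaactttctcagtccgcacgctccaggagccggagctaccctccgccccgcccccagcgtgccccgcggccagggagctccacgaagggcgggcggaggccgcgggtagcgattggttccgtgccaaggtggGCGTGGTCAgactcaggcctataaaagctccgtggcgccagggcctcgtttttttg
Gpx4: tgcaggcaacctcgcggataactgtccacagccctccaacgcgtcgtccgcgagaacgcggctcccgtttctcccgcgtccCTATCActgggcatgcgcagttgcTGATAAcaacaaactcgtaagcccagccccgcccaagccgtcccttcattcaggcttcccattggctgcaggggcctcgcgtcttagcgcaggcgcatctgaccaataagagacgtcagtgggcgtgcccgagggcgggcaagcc
The RefSeq starts of these printed windows lie downstream of the first base of the gene in the GENCODE annotation used for positions. The printed Gpx4 window thus lies within the gene, most of the Gpx1 window does too, and the Sod1 and Cat windows reach a few bases into it. The Sod1 match is the response element core on the minus strand, 56 bases before the start. Both Gpx4 matches are GATA spellings, 169 bases before the start on the minus strand and 145 on the plus strand. Among the 9 enzymes, which have 12 listed promoters, the response element core was found for 2, Sod1 and Prdx1, and 10.2% of all 32851 promoters hold it. A GATA spelling was found for 1 enzyme, Gpx4, and 26.5% of all promoters hold one. These shares count promoters and not genes, so they are not in the unit of the enzyme counts. Prdx5, also high in control 1 and control 5, held no match and is not printed. The same is true of Prdx2 and Prdx3, which were also low there. A link between a match and the level of an enzyme was not tested. Of the Gpx4 windows, the one at chr10:80046916-80047165 holds no GATA spelling and the others hold 1 or 2. The printed window holds 2 and shares 1 of them with an overlapping window. A match of letters is a description of the sequence, and no match says only that these letters are not in the window.

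Gpx4, the selenium enzyme that reduces lipid peroxides inside membranes, varied within both groups. Gpx4 (chromosome 10, 80047166 to 80056439) was at 8.35 and 8.46 in control 1 and control 5, at 5.07, 6.93 and 4.35 in control 2, 3 and 4, and at 6.17, 4.32, 5.89, 6.17 and 6.62 in metformin 1 to 5. Metformin 2 was thus as low as control 4, and control 3 was above all metformin libraries. The log2 difference was -0.79 with all libraries (95% interval -2.68 to 1.09, adjusted p = 0.521 from limma) and 0.39 without control 1 and control 5 (95% interval -1.04 to 1.81, adjusted p = 0.699 from limma), with opposite signs. The gap between the glutathione peroxidases, Gpx1 minus Gpx4 in the same library, was 4.21 to 5.93 in the metformin libraries and 2.72 to 5.89 in control 2, 3 and 4. It was -4.91 in control 1 and -2.29 in control 5.

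Prdx6, which reduces phospholipid peroxides with a single catalytic cysteine and glutathione, had the same high and low libraries among the 8. Prdx6 (chromosome 1, 161240112 to 161251219) was at 2.58, 5.46 and 1.93 in control 2, 3 and 4, at 4.18, 2.19, 3.99, 4.54 and 4.42 in metformin 1 to 5, and at 2.70 and 3.04 in control 1 and control 5. Control 3 held the highest value and metformin 2 lay below control 2, so the groups overlapped throughout. Metformin minus control was 0.73 with all libraries (95% interval -0.76 to 2.21, adjusted p = 0.458 from limma) and 0.55 without control 1 and control 5 (95% interval -1.23 to 2.32, adjusted p = 0.661 from limma).

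Among these 8 libraries the platelet list separated the same high and low libraries as Prdx6 and Gpx4. The mean over 10 platelet genes was 0.47 in metformin 2, 0.85 in control 4 and 2.03 in control 2, and 4.53, 4.73, 4.98, 5.17 and 5.57 in metformin 3, metformin 1, metformin 4, metformin 5 and control 3. Gpx4 and Prdx6, 2 of 10 enzymes, were higher in each of the last 5 libraries than in each of the first 3, as were 12.6% of all genes kept. Prdx1, 1 of 10 enzymes, was lower in each of them, as were 5.55%. The split is therefore given as a description and not as a trait of these enzymes. In control 1 and control 5 the platelet mean was 0.25 and 2.11, with Prdx6 at 2.70 and 3.04 and Gpx4 at its highest values. The platelet chemokine Pf4 was at 1.07 to 3.91 in the 3 libraries with the lower means and at 6.57 to 7.97 in the 5 others. None of the 10 platelet genes passed limma between the groups with all libraries, 0 at an unadjusted p under 0.05, and the part of platelets in the enzyme values was not tested.

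**Figure D3:**
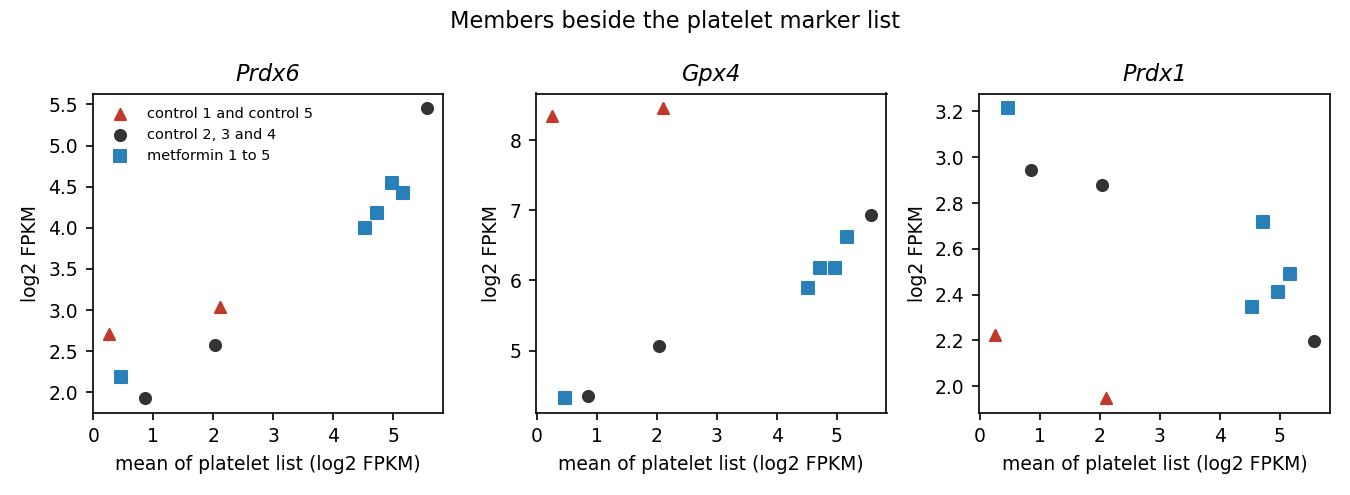
Log2 FPKM of Prdx6, Gpx4 and Prdx1 (vertical axes) against the mean log2 FPKM of 10 platelet marker genes (horizontal axes), 1 point per library, with control 1 and control 5, control 2, 3 and 4 and the metformin libraries as separate symbols. The 5 libraries with platelet means of 4.53 to 5.57 lie above the 3 with means of 0.47 to 2.03 for Prdx6 and Gpx4 and below them for Prdx1.

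Prdx1, the close relative of Prdx2 in the cytosol of nucleated cells, differed little between the groups. Prdx1 (chromosome 4, 116685544 to 116700822) was at 2.22, 2.88, 2.20, 2.94 and 1.95 in control 1 to 5 and at 2.72, 3.21, 2.35, 2.41 and 2.49 in metformin 1 to 5. Metformin 2 lay above every control and control 1, 3 and 5 below every metformin library, and the rest overlapped. The log2 difference was 0.20 with all libraries (95% interval -0.44 to 0.84, adjusted p = 0.644 from limma) and -0.04 without control 1 and control 5 (95% interval -0.68 to 0.60, adjusted p = 0.943 from limma). Prdx2 minus Prdx1 in the same library was 5.31 to 6.13 in the metformin libraries, 5.41 to 6.34 in control 2, 3 and 4, and 2.68 and 3.17 in control 1 and control 5. The distance of the pair thus ran from 5.31 to 6.34 in the 8 libraries with Alas2 at the top.

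Prdx3 and Prdx5 are the peroxiredoxins of mitochondria, with Prdx5 also in peroxisomes and the cytosol. Prdx3 (chromosome 19, 60864051 to 60874556) was at 1.47, 2.03, 1.56, 1.50 and 1.37 in control 1 to 5 and at 1.95, 2.40, 2.12, 1.95 and 2.46 in metformin 1 to 5. Control 2 lay above metformin 1 and metformin 4, and the other 4 controls lay below every metformin library. Its log2 difference was 0.59 with all libraries (standard error 0.204, 95% interval 0.14 to 1.04, adjusted p = 0.101 from limma) and 0.48 without control 1 and control 5 (adjusted p = 0.177 from limma). Prdx5 (chromosome 19, 6906697 to 6910106) was at 5.15, 4.39, 4.24, 2.93 and 5.36 in control 1 to 5 and at 3.43, 3.01, 3.49, 3.66 and 3.90 in metformin 1 to 5. Control 4 was the lowest library of all, and the other controls were above every metformin library. The Prdx5 difference was -0.91 with all libraries (95% interval -1.96 to 0.13, adjusted p = 0.213 from limma) and -0.35 without control 1 and control 5 (adjusted p = 0.552 from limma). Prdx5 overlaps Trmt112 on the other strand, which was at 0.62 to 1.84.

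**Figure D4:**
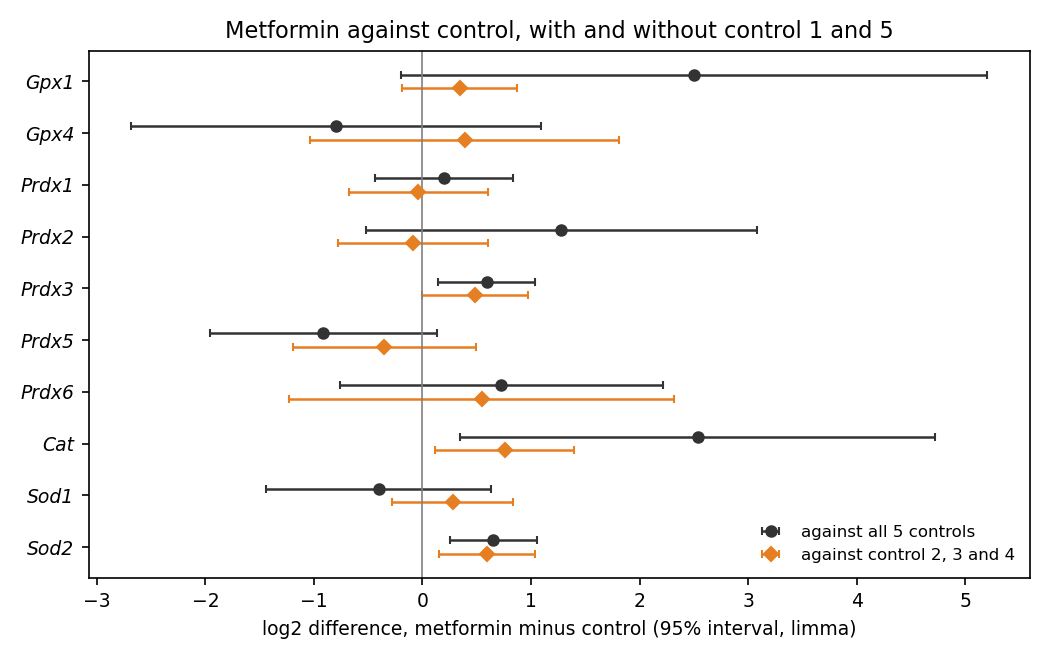
Log2 difference of the 10 enzymes, metformin minus control (horizontal axis), with its 95% interval from limma, against all 5 controls (circles) and against control 2, 3 and 4 (diamonds). The intervals of Cat and Sod2 lie above 0 in both comparisons before adjustment over all genes, and those of Gpx1, Cat and Prdx2 are wider with control 1 and control 5 included.

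Levels of the 10 transcripts can be set in order within the metformin libraries, since FPKM is scaled by length. The mean log2 levels were 10.55 ± 0.309 (SD, n = 5) for Gpx1, 8.34 ± 0.216 (SD, n = 5) for Prdx2 and 6.60 ± 0.165 (SD, n = 5) for Cat, whose ranges over the 5 libraries did not overlap. Gpx4 followed at 5.84 ± 0.887 (SD, n = 5) and overlapped Cat. Sod1 at 4.12 ± 0.104 (SD, n = 5), Prdx6 at 3.87 ± 0.960 (SD, n = 5) and Prdx5 at 3.50 ± 0.327 (SD, n = 5) did not differ beyond their spread from the next in order. Prdx1 at 2.64 ± 0.353 (SD, n = 5), Prdx3 at 2.18 ± 0.241 (SD, n = 5) and Sod2 at 2.02 ± 0.223 (SD, n = 5) were lowest, and their ranges overlapped in the same way. Within each metformin library Prdx1 was nevertheless above both Prdx3 and Sod2. Sod2 was above Prdx3 in metformin 4 and below it in the other metformin libraries. The SD was smaller in the metformin-treated group than in the control group for each enzyme but Sod2, as in Gpx1 (0.309 against 3.14), Cat (0.165 against 2.48) and Prdx2 (0.216 against 1.96), where control 1 and control 5 are part of the control spread.

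For the 4 enzymes with the largest SD over the 10 libraries, the genes most alike in pattern were found among 3441 others by the root mean square difference of log2 values, after centring each gene on its own mean. The nearest to Cat were Gclm (0.199), a subunit of the enzyme that begins glutathione synthesis, the iron-sulfur scaffold gene Iscu (0.213) and Ube2b (0.215), a ubiquitin-conjugating enzyme. Those nearest to Gpx1 were Isg15 (0.366), Isca1 (0.370) and Cd24a (0.398), and to Prdx2 Tmem256 (0.237), Ctse (0.248) and Cox6b2 (0.275). The nearest to Gpx4 were S100a1 (0.344), a calcium-binding protein of heart muscle, Gsn (0.362) and Hdac5 (0.596). These values describe 10 libraries of which 2 stand apart, and they carry no test.

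Among the other genes of peroxide and thiol metabolism, chosen from knowledge of the pathways, 1 passed limma with all libraries. Their lists held 2 to 8 tested genes each, and over all genes tested 4.21% were called higher and 3.11% lower. A single call is therefore given as a description and not as a trait of these lists. The called gene was Txnip, which binds and inhibits thioredoxin and is known as a gene that responds to glucose. Txnip was at 5.27, 3.95, 3.17, 3.22 and 4.72 in control 1 to 5 and at 2.34, 2.53, 2.58, 2.15 and 1.88 in metformin 1 to 5, with no overlap. Its log2 difference was -1.77 (adjusted p = 0.0352 from limma), and -1.15 without control 1 and control 5 (adjusted p = 0.0208 from limma). Without control 5, or without any 1 of the metformin libraries, the call was lost (adjusted p of limma up to 0.101). With control 1 and control 5 already out, it was lost without control 2, metformin 4 or metformin 5 (up to 0.0765). With all libraries it was also lost with the replicate number as a block and with no filter on low values (up to 0.108). It was the only call among 8 tested thioredoxin genes in either comparison, 0 of which were higher.

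Of 8 tested genes of glutathione synthesis and recycling, 8 of the NRF2 pathway and heme breakdown, 7 glutathione transferases and 8 selenoprotein genes, limma called 0 in either direction, with or without control 1 and control 5. Before adjustment and with all libraries, a p under 0.05 was found for 2 glutathione genes, 1 transferase and 2 selenoprotein genes with higher values and for 1 glutathione gene with a lower value. Gclm, the gene nearest to Cat, ranged from 6.26 to 6.71 in the metformin libraries and from 5.23 to 6.06 in control 2, 3 and 4, with 0.43 in control 1 and 1.46 in control 5 (difference 2.71, adjusted p = 0.136 from limma). The glutaredoxin Glrx had a difference of 0.50 (adjusted p = 0.138 from limma). In the NRF2 list the biliverdin reductase Blvrb had a difference of 2.69 with all libraries and 0.47 without control 1 and control 5 (adjusted p = 0.179 and 0.477 from limma), and the autophagy receptor Sqstm1 had 0.78 (adjusted p = 0.197 from limma). The transferases Gstm5 and Mgst3 had differences of 1.18 and 0.56 (adjusted p = 0.142 and 0.266 from limma), and the selenoproteins Selenot and Selenok 0.63 and 1.55 (adjusted p = 0.140 and 0.154 from limma). Without control 1 and control 5 the differences were 0.80 for Gclm, 0.39 for Glrx, 0.51 for Sqstm1, 0.59 for Gstm5, 0.92 for Mgst3, 0.30 for Selenot and 0.47 for Selenok. The median difference of the list was 0.13 for glutathione, 0.13 for NRF2, -0.07 for the transferases and 0.25 for the selenoproteins, against 0.01 over all genes tested. Without control 1 and control 5 these medians were -0.10, -0.08, 0.46 and 0.20, against 0.07, so the sign turned for the first 3 lists.

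Of the other peroxidases and their partners, Gpx3 and Ccs passed the filter, 2 of 6. Gpx3, the secreted glutathione peroxidase of plasma, was at 5.87 and 6.37 in control 1 and control 5, at 0.11, 0.49 and 0.62 in control 2, 3 and 4, and at 1.38 to 1.67 in the metformin libraries. Metformin minus control was -1.22 with all libraries (adjusted p = 0.480 from limma) and 1.07 without control 1 and control 5 (adjusted p = 0.00160 from limma), a call that held when each further library was left out (adjusted p of limma at most 0.00886). In the 8 libraries of that comparison Gpx3 reached the filter's value of 1 in the metformin libraries alone, so a gene that passed in this way had to differ, and the call is no support for a difference. Ccs, the copper chaperone of Sod1, had a difference of 0.34 (adjusted p = 0.327 from limma) and of 0.15 without control 1 and control 5.

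The NADPH oxidase of phagocytes makes the superoxide that dismutases remove. Its genes Rac2, Ncf1 and Cyba were called lower in the metformin-treated group once control 1 was left out, with or without control 5. Of 4 tested genes of this oxidase, limma called 0 with all libraries, where 1 had an unadjusted p under 0.05 and 3.11% of all genes tested were called lower. Without control 1 and control 5 it called 3 lower, where 9.06% of all genes tested were lower. These were Rac2 (-1.74, adjusted p = 0.00224 from limma), Ncf1 (-1.14, adjusted p = 0.0113 from limma) and Cyba (-1.33, adjusted p = 0.0154 from limma). The call of Cyba ended without control 2 (adjusted p = 0.0539 from limma). In the same comparison, against the same 9.06% of all genes, limma called 7 of 9 tested lymphocyte genes lower and 0 of 8 tested neutrophil genes. The mean over 11 lymphocyte genes was 2.85 to 3.10 in control 2, 3 and 4 and 0.98 to 1.85 in the metformin libraries. That over 11 neutrophil genes was 1.24 to 4.81 and 0.70 to 2.29, with overlap. With control 1 alone left out, limma also called Rac2, Ncf1 and Cyba lower (adjusted p = 0.0101, 0.0264 and 0.0217 from limma). In that fit 237 of all 3442 genes tested were lower. With control 5 alone left out it called 0 of these 3. The part of white cells in these differences was not tested.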

How the data were processed

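Blood RNA was extracted with TRIzol. The methods name TopHat v2.0.9 and Bowtie v2.0.6 for alignment, and Cufflinks and GRCm38 stand in the submitters' processing notes. The authors deposited log2 FPKM. Its sorted values differ between libraries by an SD of at most 0.0399 at any position, the mark of a quantile normalization that the methods do not mention. No counts were used, so depth is unknown and no counting interval is given. Of the identifiers, 8897 matched GENCODE vM21 and 7 did not, and all 10 enzymes matched.

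The 3442 genes that reached 1 on the log2 scale in 5 or more libraries were fitted with limma 3.58.1 in R 4.3.3 (eBayes with a trend), p-values were adjusted over all of them, and the threshold was 0.05. The methods name no test for differential expression. The enzymes, the lists and the choice to set control 1 and control 5 apart were made with earlier results of these data known. Named besides the enzymes are companion genes called with all libraries, otherwise the 2 with the smallest p of each list, the 3 genes nearest in pattern to the 4 most variable enzymes, and the first gene of marker lists. Ncf1 was named after its values were seen, as were the overlapping genes. From the NADPH oxidase list 1 gene is not reported here. Replicate numbers are not stated to pair the mice, so the main fit used no block. Correlations of same-numbered deviations were -0.25 to 0.13, which cannot exclude a pairing, since control 1 and control 5 stand apart from the other controls. Annotated pseudogenes match the mRNA by at least 95% over at least 100 bases for Gpx4 (2), Prdx1 (2), Prdx2 (1) and Sod1 (1), whose reads could be shared. The fit was also run on simulated normal values with the same SD in both groups. In these data the SD can differ between the groups, as in Gpx1 (3.14 in the controls and 0.309 under metformin). That run therefore does not show how the fit fares with control 1 and control 5 included.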

Additional observations from a re-analysis of the deposited data

Results flagged for a closer look

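Each group of 5 libraries was searched for a single value far from the others, by comparing its gap to the nearest value with the range of the group. Chance gives about 1 such value in 20 groups, and 20 groups (10 enzymes in both treatments) were searched. Prdx6 in metformin 2 was at 2.19, with a gap of 0.768 of the range, and this library also had the lowest platelet mean of the metformin libraries. Prdx3 in control 2 was at 2.03, with a gap of 0.717 of the range, close to the limit of 0.71.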

How the results depend on the processing

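The enzymes called lower were 0 in every setting run. Those called higher were 0 except for Sod2 without control 4 (1), with eBayes without a trend (1, adjusted p = 0.0356 from limma) and with library weights (1, adjusted p = 0.0426 from limma), and 5 (Gpx1, Prdx1, Prdx3, Cat and Sod2) with values centred on 81 ribosomal protein genes. That centring moves the median difference of all genes to 0.84, against -0.07 when centred on the median, and the enzyme calls under it are relative to this shift. Leaving out each library gave 0 to 1 enzymes higher. Over all genes, 145 were higher and 107 lower. Leaving out single libraries gave 43 to 296 higher and 8 to 237 lower. The counts were 29 and 1 with the replicate block, 60 and 13 without the filter, 52 and 64 with the stricter filter, 1866 and 19 centred on ribosomal proteins, 345 and 394 with library weights, and 200 and 312 without control 1 and control 5, with 193 to 324 lower when a further library was left out. The cause was not tested. The replicate block changed no enzyme's call and ended that of Txnip. Signs turned for Gpx4 (0.39), Prdx1 (-0.038), Prdx2 (-0.087) and Sod1 (0.28) without control 1 and control 5, for Gpx4 (0.030) and Sod1 (0.42) centred on ribosomal proteins, and for Gpx4 (0.51), Prdx1 (-0.17) and Sod1 (0.043) with library weights. Without control 1 and control 5, leaving out a further library gave -0.16 to 1.13 for Gpx4, -0.28 to 0.10 for Prdx1, -0.50 to 0.31 for Prdx2 and -0.15 to 1.61 for Prdx6, and kept the sign at 0.062 to 0.60 for Gpx1, 0.43 to 0.94 for Cat, 0.38 to 0.65 for Prdx3, -0.82 to -0.085 for Prdx5, 0.15 to 0.42 for Sod1 and 0.47 to 0.70 for Sod2. Prdx3 and Sod2 did not pass the stricter filter. Signal over background is unknown without counts.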
